A study of Homo sapiens with 2 samples.

Results

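The miRNA array used here carried 450 probes for miRNA precursors beside 879 probes for mature miRNAs, and 133 of the precursor probes are described below. They were chosen by name and by signal: the name marks the probe as a precursor, a fixed set of miRNA numbers that covers 87 precursor probes was left out, and the signal had to be above 0 on both arrays. Of the 363 precursor probes left after the numbers, 133 met this, 61 had a signal under hypoxia only, 1 had a signal under normoxia only and 168 had none. The RNA came from the human gastric cancer line MKN1, an established line, which was exposed either to 1% O2 in a hypoxic chamber or to normoxia, for 24 h in both cases. Line, medium and array design were the same for both conditions. With only 1 array for each, no difference below has a replicate check and none could be tested, and precision is limited by this number. The values are linear signal intensities that the authors had normalized. They summed over the whole array to 1001867 under hypoxia and 1149819 under normoxia. The 133 precursors made up 11.5% of the sum under hypoxia and 11.2% under normoxia. Probes of any kind with a signal on both arrays held 978427 of the sum under hypoxia and 1149751 of that under normoxia. Signal under normoxia only was thus close to absent over the whole array, as it was among the precursors. Because total RNA of a culture was hybridized, fewer molecules per cell and fewer cells that hold them cannot be told apart.

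A miRNA gene is transcribed as a long primary transcript, in which the miRNA sits in one arm of a hairpin. The nuclear enzyme Drosha cuts the hairpin out, the precursor is exported, and Dicer removes its loop in the cytoplasm, after which one strand of the duplex is usually kept in an Argonaute protein as the mature miRNA. The base 2 to 8 stretch of the mature strand, called the seed, guides it to its targets. An array that measures both the precursor and the mature miRNA therefore reads 2 stages of one pathway, and the comparison of interest was whether the precursor and the mature form of a gene moved alike under hypoxia. Which part of the hairpin each probe covers, and whether a mature probe also binds the precursor, is not given in the sources that were used.

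Hairpins of some of the members whose precursor and mature changes were over 2-fold apart, of the members over 2-fold lower, and of copies or paralogs of these are given here as RefSeq lists them (GRCh38.p14), with the mature strand in capitals. The first 7 lines belong to genes whose precursor was higher and whose mature form in capitals was lower under hypoxia on the deposited scale. The other strand of miR-342, miR-342-5p, was higher, and miR-26a-2, miR-103-2 and the miR-9 pair lie in families that have further copies.
miR-26a-2 (chr12:57824609-57824692, minus strand): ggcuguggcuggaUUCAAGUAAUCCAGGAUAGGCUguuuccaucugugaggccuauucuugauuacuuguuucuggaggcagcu
miR-103-2 (chr20:3917494-3917571, plus strand): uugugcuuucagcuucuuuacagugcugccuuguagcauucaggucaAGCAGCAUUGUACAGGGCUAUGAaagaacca
miR-9-1 (chr1:156420341-156420429, minus strand): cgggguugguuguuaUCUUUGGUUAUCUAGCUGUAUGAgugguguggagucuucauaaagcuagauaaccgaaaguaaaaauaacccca
miR-9-3 (chr15:89368017-89368106, plus strand): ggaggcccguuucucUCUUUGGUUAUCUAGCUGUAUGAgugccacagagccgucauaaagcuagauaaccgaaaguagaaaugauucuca
miR-193b (chr16:14303967-14304049, plus strand): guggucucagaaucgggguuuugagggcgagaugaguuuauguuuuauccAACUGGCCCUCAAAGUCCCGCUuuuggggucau
miR-15a (chr13:50049119-50049201, minus strand): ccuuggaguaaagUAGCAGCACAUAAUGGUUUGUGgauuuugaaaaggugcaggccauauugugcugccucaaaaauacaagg
miR-342 (chr14:100109655-100109753, plus strand): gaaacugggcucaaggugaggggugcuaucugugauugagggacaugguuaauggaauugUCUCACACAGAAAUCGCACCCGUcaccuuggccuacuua

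The next hairpins belong to genes whose precursor changed less than a mature form that was higher under hypoxia, or was lower while the mature form was not or was less so, with the other copy of miR-218 and the paralog of miR-27a for comparison.
miR-210 (chr11:568089-568198, minus strand): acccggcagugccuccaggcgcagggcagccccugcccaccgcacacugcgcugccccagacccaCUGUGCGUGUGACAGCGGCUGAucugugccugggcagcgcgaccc
miR-218-1 (chr4:20528275-20528384, plus strand): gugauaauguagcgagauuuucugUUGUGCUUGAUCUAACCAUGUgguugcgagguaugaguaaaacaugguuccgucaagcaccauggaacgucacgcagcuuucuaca
miR-218-2 (chr5:168768146-168768255, minus strand): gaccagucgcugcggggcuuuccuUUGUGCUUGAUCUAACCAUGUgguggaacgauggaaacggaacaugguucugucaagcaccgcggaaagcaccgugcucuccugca
miR-652 (chrX:110055329-110055426, plus strand): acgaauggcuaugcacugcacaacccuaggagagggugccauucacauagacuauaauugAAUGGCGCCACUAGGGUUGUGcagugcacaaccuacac
miR-27a (chr19:13836440-13836517, minus strand): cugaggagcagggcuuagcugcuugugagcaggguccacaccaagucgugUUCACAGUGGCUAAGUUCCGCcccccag
miR-27b (chr9:95085445-95085541, plus strand): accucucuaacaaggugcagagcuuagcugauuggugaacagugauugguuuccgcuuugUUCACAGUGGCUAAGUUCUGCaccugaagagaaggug

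Most precursors changed by less than 2-fold between the arrays, and those that changed more had signals under 1000. Of the 133 precursors, 81 had a higher signal under hypoxia, 51 a lower signal and 1, miR-133b, the same signal of 63 on both arrays. Their median log2 fold change of hypoxia over normoxia was 0.23, with quartiles at -0.30 and 0.63 and an SD of 0.64 across precursors. Over 2-fold higher were 12 (9.02% of the 133), and over 2-fold lower were 2 (1.5%). Among all 663 probes of the array with a signal on both arrays, 9.65% were over 2-fold higher and 2.11% over 2-fold lower, with a median of 0.14, so the share of precursors past 2-fold was close to that of the whole array. The signals of these same probes chose the precursors, and these counts and medians describe the 2 arrays only. With scaling on the total signal, all 663 probes had a median of 0.33 and the precursors one of 0.43. The excess of higher signals varied with the processing. Median centring left the precursors with a median of 0.093 and 58 lower, and 75th percentile scaling with 0.25 and 51 lower. Under quantile normalization the precursors had a median of 0 with 65 higher and 66 lower, and with the trend of change with signal removed a median of 0.022 with 65 lower. These last 2 methods bring the median of all probes to 0 and 0.019, so a smaller excess was largely built in.

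Signal level and change went together in precursors as in mature miRNAs. Median log2 fold changes were 0.35 for the 49 precursors with a mean log2 signal under 7, 0.18 for the 67 between 7 and 11, and -0.17 for the 17 above 11. Mature miRNAs in the same bins had medians of 0.38, 0.12 and -0.22. The precursors over 2-fold higher had normoxia signals of at most 250, and none of the 30 precursors with a normoxia signal of at least 1000 was past 2-fold in either direction. The part of this trend in each change was not tested, and where its removal takes a named precursor below 2-fold this is said beside the value.

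**Figure D1:**
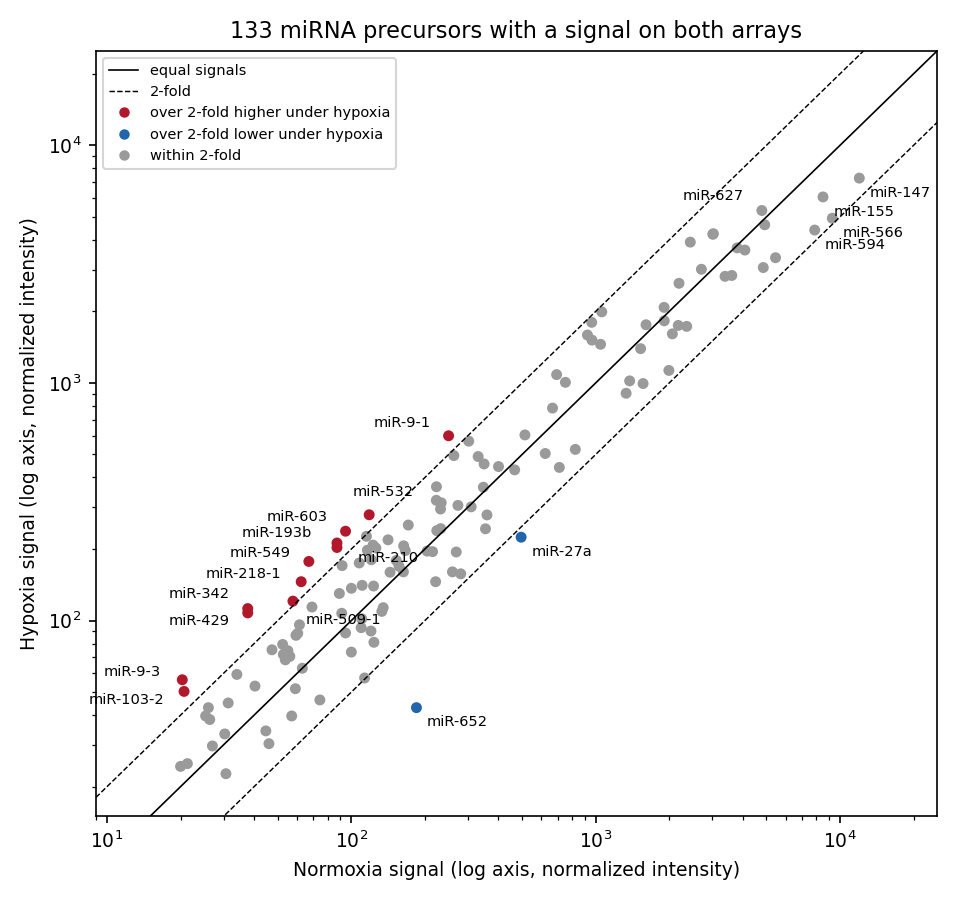
Signals of the 133 precursors, hypoxia on the vertical and normoxia on the horizontal axis, both on log scales in units of normalized intensity, with 1 point per precursor, a solid line at equal signals and dashed lines at 2-fold. The 12 precursors over 2-fold higher under hypoxia have normoxia signals of at most 250, miR-652 and miR-27a lie below the lower dashed line, and 4 of the 5 brightest precursors lie below the line of equal signals.

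Among the precursors over 2-fold higher, miR-342 came first, with a signal of 112 under hypoxia against 37.7 under normoxia, a log2 fold change of 1.58. Its gene lies within EVL, which encodes an actin regulator of the Ena/VASP group. The precursor of miR-429, a member of the miR-200 family that restrains the transcription factors ZEB1 and ZEB2 in epithelial cells, had 108 under hypoxia against 37.7 under normoxia (1.52). Both copies of miR-9 that had a signal on both arrays were in this group: miR-9-3 had 56.3 under hypoxia against 20.3 under normoxia (1.47), and miR-9-1 had 599 against 250 (1.26). miR-9 is best known as a miRNA of the developing brain and can target the E-cadherin gene CDH1. The miR-9-1 precursor was the only one of the 12 with a signal of at least 250 on both arrays, and the only one that stayed over 2-fold higher under each of the 7 other scalings and pseudocounts tried, with log2 fold changes of 1.10 to 1.46.

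The precursor of miR-549 had 177 under hypoxia against 67 under normoxia (1.40), and that of miR-603 had 238 against 94.7 (1.33). Their genes lie within the protein-coding genes CEMIP, a hyaluronan-binding protein gene, and KIAA1217. miR-103-2, whose gene lies within the pantothenate kinase gene PANK2 and whose mature form targets DICER1, had a precursor signal of 50.3 under hypoxia against 20.7 under normoxia (1.28), close to the lowest signal of 20 that is listed on either array. Next to it stood miR-193b with 212 under hypoxia against 87.3 under normoxia (1.28). These are differences of under 3-fold in probes with normoxia signals under 100, and miR-103-2 and miR-193b were below 2-fold once the trend with signal was removed.

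The precursor of miR-532 had 279 under hypoxia against 118 under normoxia (1.24). That of miR-218-1, in the gene of the axon guidance ligand SLIT2, had 146 under hypoxia against 62.3 under normoxia (1.23). The precursor of miR-210, the miRNA most widely known to be induced by hypoxia-inducible factors, had 203 under hypoxia against 87.3 under normoxia (1.22). The last of the 12 was miR-509-1, of a cluster on the X chromosome expressed mainly in testis, with 121 under hypoxia against 57.7 under normoxia (1.07). miR-532, miR-218-1, miR-210 and miR-509-1 were below 2-fold with the trend removed, at 0.90 for miR-210, and higher under hypoxia in each of the 7 alternatives.

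On the deposited scale the 2 precursors over 2-fold lower were miR-652 and miR-27a. The precursor of miR-652, on the X chromosome within TMEM164, had 43 under hypoxia against 185 under normoxia, a log2 fold change of -2.10 and the largest change of the 133 in either direction. It lay between -2.46 and -1.34 over the alternatives. The precursor of miR-27a, part of the miR-23a cluster and active in adipogenesis and cell cycle control, had 224 under hypoxia against 495 under normoxia (-1.14). It stayed over 2-fold lower except with scaling on the total signal (-0.94) and with a pseudocount of 50, and lay at -1.33 once the trend was removed. Just short of 2-fold was miR-143, with 57.3 under hypoxia against 113 under normoxia (-0.98). It is known from smooth muscle and as a miRNA that is often low in colorectal and gastric tumours. The miR-143 precursor was over 2-fold lower under median centring (-1.12), quantile normalization (-1.35) and trend removal (-1.35). So were miR-566 under median centring (-1.05), and miR-220a (-1.08) and miR-142 (-1.05) with the trend removed. Quantile normalization also put miR-220a (-1.14) and miR-142 (-1.14) past 2-fold lower, and miR-211 (-1.001) and miR-140 (-1.0001) just past it.

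The brightest precursors mostly had lower signals under hypoxia. The precursor of miR-147 had 7276 under hypoxia against 11992 under normoxia (log2 fold change -0.72), and that of miR-155, a regulator of lymphocyte activation that is raised in many tumours, had 6064 against 8518 (-0.49). For miR-566 the signals were 4932 under hypoxia and 9298 under normoxia (-0.91), and for miR-594 they were 4399 and 7876 (-0.84). RefSeq held no gene entry for miR-566 or miR-594. miR-627 went the other way, with 5316 under hypoxia against 4787 under normoxia (0.15). With the trend removed the same 4 precursors remained lower under hypoxia, at -0.35, -0.16, -0.60 and -0.54 in this order, while miR-627 was at 0.42. Under quantile normalization miR-155 was at 0.0029, close to equal on both arrays.

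Precursor and mature miRNA of a gene were then set against each other. A mature partner, the unstarred strand of the same gene, had a signal on both arrays for 97 of the 133 precursors, and these used 94 mature probes, since miR-9, miR-218 and miR-550 have 2 precursors each. Only changes were compared, because levels of 2 probes are not on 1 scale. In 31 pairs precursor and mature form were both higher under hypoxia and in 26 both were lower. In 25 pairs the precursor was higher and the mature form lower, in 14 the precursor was lower and the mature form higher, and in 1 the precursor was equal. The changes followed each other only loosely, with a Pearson coefficient of 0.26 and a Spearman coefficient of 0.23 across the 97 pairs, which come from the same 2 arrays and share mature probes between copies, so no p is given.

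The difference between the precursor and the mature log2 fold change had a median of 0.10, with quartiles at -0.36 and 0.52. A factor that scales a whole array cancels in this difference, but quantile normalization and removal of the trend act on each signal level differently, and the median turned to -0.035 under the first, with 44 of 97 pairs above 0, and to -0.066 under the second. It was positive for 54 pairs and negative for 43. In 12 pairs the precursor change was over 2-fold above the mature change and in 11 it was over 2-fold below, together 23.7% of the 97. For scale, the changes of the 2 mature strands of 1 gene were over 2-fold apart in 20.4% of 98 genes that had both, and the SD of the difference was 0.82 for precursor against mature and 0.75 between the strands, so gaps of this size were about as common between 2 mature strands as between precursor and mature form. The choice of strand also matters where the array names a 5p and a 3p strand, which held for 11 of the 97 pairs: with the other strand as the partner the difference changed sign in 5 of them. Over the 57 pairs with all 4 signals of at least 100, 5 were over 2-fold above and 4 below.

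**Figure D2:**
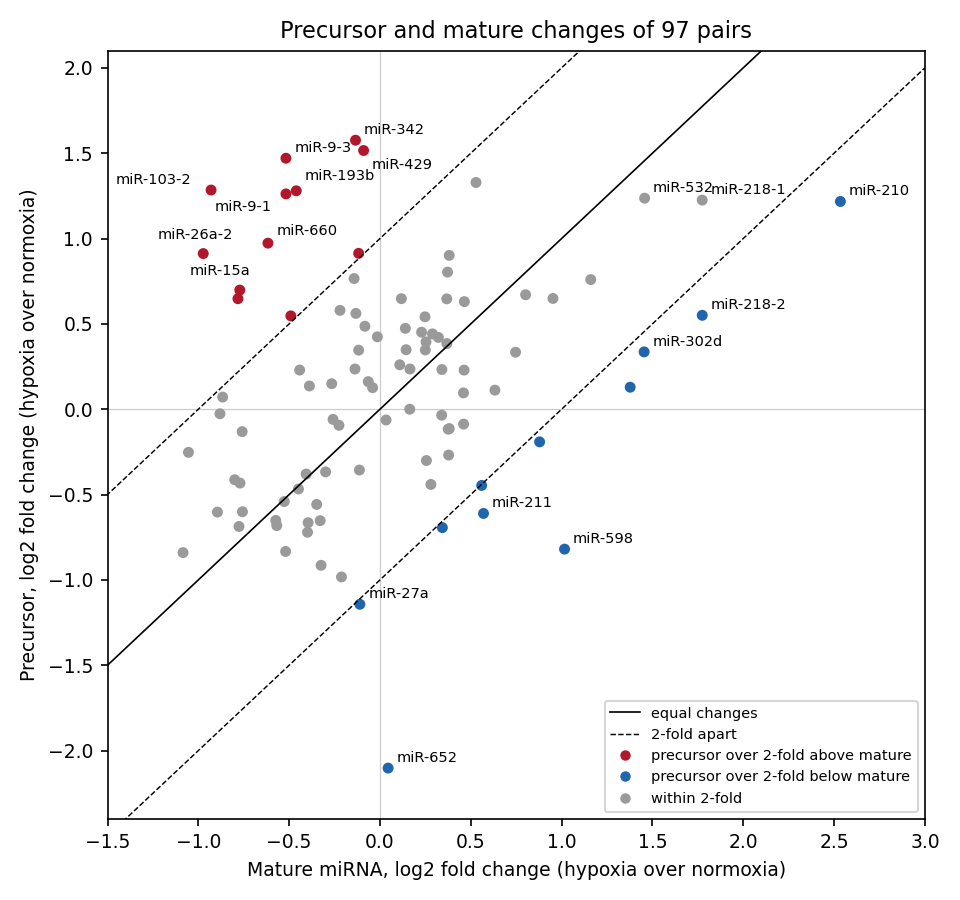
Log2 fold changes of hypoxia over normoxia for 97 pairs, the precursor on the vertical and its mature miRNA on the horizontal axis, with 1 point per precursor, a solid line at equal changes and dashed lines where the changes are 2-fold apart. The 12 points beyond the upper dashed line all have a mature change below 0 on the deposited scale, and miR-652, miR-598 and miR-210 lie below the lower dashed line.

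On the deposited scale all 12 pairs with the precursor over 2-fold above had a higher precursor and a lower mature partner under hypoxia. Scaling on the total signal adds 0.20 to every log2 fold change. This takes mature miR-342-3p (-0.13), miR-429 (-0.09) and miR-550 (-0.12) above 0, and miR-342-3p was also at 0.08 with the trend removed. The difference was widest for miR-103-2, at 2.21 on the log2 scale: the mature miR-103 had 2389 under hypoxia against 4552 under normoxia (-0.93), while the precursor was higher, as described above. Among brighter precursors, miR-26a-2 stood out. miR-26a is widely expressed and acts on cell cycle genes, and the miR-26a-2 hairpin lies within CTDSP2, which encodes a small phosphatase. Its precursor had 569 under hypoxia against 302 under normoxia (0.91), and mature miR-26a had 4281 under hypoxia against 8404 under normoxia (-0.97), a difference of 1.88. Over all 7 alternatives this difference stayed between 1.39 and 1.88.

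The mature miR-9 had 665 under hypoxia against 952 under normoxia (-0.52), so both of its measured precursors ran against it, with differences of 1.99 for miR-9-3 and 1.78 for miR-9-1. Mature miR-193b, a miRNA with tumour suppressor roles in several cancers, had 1012 under hypoxia against 1393 under normoxia, a difference of 1.74 from its precursor. Mature miR-342-3p had 3759 under hypoxia against 4127 under normoxia, a difference of 1.71. The other strand, miR-342-5p, was higher like the precursor, with 595 under hypoxia against 441 under normoxia (0.43), and left a difference of 1.14. For these 3 genes and for miR-103-2 it was the precursor that moved by over 2-fold and the mature form by less.

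miR-15a and miR-660 showed smaller moves of opposite sign. miR-15a targets BCL2 and lies with miR-16-1 in the DLEU2 gene at a locus often lost in chronic lymphocytic leukaemia. Its precursor had 175 under hypoxia against 108 under normoxia (0.70), and the mature form 1491 under hypoxia against 2546 under normoxia (-0.77), a difference of 1.47. The precursor of miR-660 had 226 under hypoxia against 115 under normoxia, and the mature form 192 under hypoxia against 294 under normoxia, a difference of 1.59. The difference was 1.61 for miR-429, 1.04 for miR-141 and 1.03 for miR-550-2. Just below 2-fold were miR-18b (0.94), miR-502 (0.91) and miR-24-1 (0.85), of which miR-18b and miR-24-1 had precursors close to equal on both arrays and mature signals that were lower under hypoxia. The difference of miR-502 was taken to miR-502-3p and turned to -0.10 with miR-502-5p in its place, and that of miR-24-1 turned to -0.07 under quantile normalization.

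In the other direction, the difference was -2.15 for miR-652: its mature form had 87.7 under hypoxia against 85 under normoxia, with hardly any change beside the lower signal of the precursor. The miR-598 precursor had 1129 under hypoxia against 1993 under normoxia (-0.82), and the mature form 572 under hypoxia against 283 under normoxia (1.02), a difference of -1.84. This difference lay between -1.84 and -1.65 over the alternatives. For miR-210 both forms were higher under hypoxia, but the mature form had 2219 under hypoxia against 383 under normoxia (2.53), so that the precursor lagged by 1.32 (difference -1.32).

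The pattern of miR-210 was higher signals of both forms with the larger change in the mature one. Among the named pairs over 2-fold apart it was also seen for miR-218 and, on the deposited scale, for miR-302d. On that scale it held for miR-605 too (precursor 0.13, mature 1.38), which the naming rule left out for a mature normoxia signal of 27.3. Mature miR-218 had 513 under hypoxia against 150 under normoxia (1.77), while its precursors were higher by less, with differences of -1.22 for miR-218-2, whose gene lies within SLIT3, and -0.55 for miR-218-1. Mature miR-302d, of a cluster known from pluripotent stem cells, had 3011 under hypoxia against 1099 under normoxia, and its precursor had 70.7 under hypoxia against 56 under normoxia, a difference of -1.12. Under quantile normalization the miR-302d precursor was at -0.07 and with the trend removed at -0.04, so its direction turned. The remaining named pairs had a precursor that was lower under hypoxia on the deposited scale, of which that of miR-604 turned to 0.0073 after scaling on the total signal. miR-211, of the melanocyte gene TRPM1, had a difference of -1.18, miR-604 of -1.07, miR-29b-2 of -1.04, miR-27a of -1.03, miR-193a of -1.01 and miR-143 of -0.77. The miR-193a difference was taken to miR-193a-5p (0.56) and came to -0.28 with miR-193a-3p (-0.16). Mature miR-27a was one of the brightest probes, with 34474 under hypoxia against 37228 under normoxia, and stayed near its normoxia level while its precursor was over 2-fold lower.

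**Figure D3:**
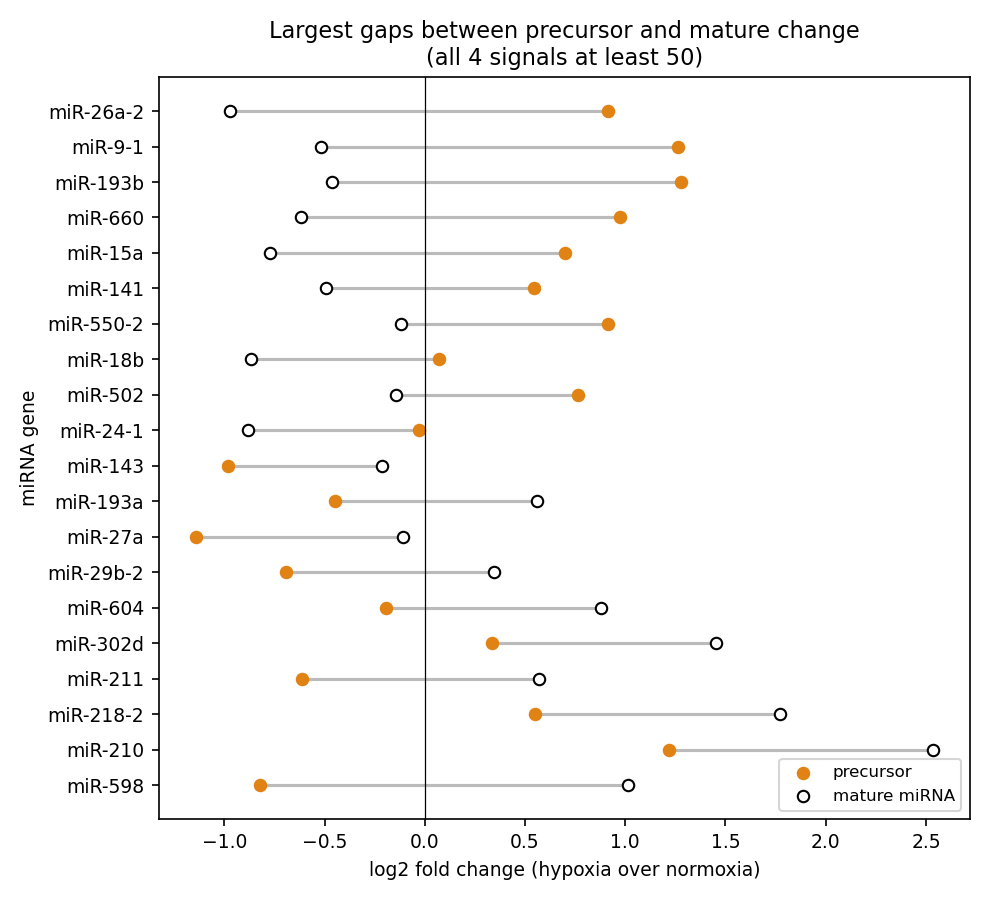
Log2 fold changes of hypoxia over normoxia for precursor (filled) and mature miRNA (open) in the 20 pairs with the largest differences, 10 in each direction, among pairs whose 4 signals were all at least 50. In the upper rows the precursor lies right of the mature form, as for miR-26a-2 at 0.91 against -0.97, and in the lower rows it lies left, as for miR-598 at -0.82 against 1.02.

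For 36 of the 133 precursors no mature partner had a signal on both arrays. The unstarred strand was listed at 0 on both arrays for 25 of them and had a signal under hypoxia only for 11, the highest of these being 51.7. Starred strands did not count as partners, although miR-452* had 891 under hypoxia against 738 under normoxia and miR-505* had 934 against 1227. Dim precursors were not the whole of this group: 10 of the 36 had signals of at least 1000 on both arrays. miR-155 is the clearest case, since its precursor was the second brightest by summed signal, while mature miR-155 had 44.3 under hypoxia and was listed at 0 under normoxia. The miR-627 precursor was bright on both arrays as well, and mature miR-627 was listed at 0 on both. Under hypoxia 25 of the 36 were higher and 11 lower, and their median on the log2 scale was 0.26.

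The measured precursors of the epithelial miR-200 group all lay in one direction. With miR-203 and miR-205 the list held 7 precursors, of which 5 were among the 133 and miR-200a and miR-203 were at 0 on both arrays. All 5 were higher under hypoxia, with a median of 0.55 beside 0.14 over all probes, and in all 5 pairs the precursor change was above the mature change, by a median of 0.53; both held under each of the 7 alternatives. The miR-200b precursor had 1084 under hypoxia against 692 under normoxia, and mature miR-200b had 357 against 329. For miR-200c the precursor had 1454 under hypoxia against 1047 under normoxia, and the mature form 189 against 171. miR-141 had a precursor signal of 86.7 under hypoxia against 59.3 under normoxia and a mature signal of 856 against 1203, and the miR-205 precursor had 2626 against 2193. Mature miR-200b, miR-200c and miR-429 share the seed AAUACUG, and miR-141 has AACACUG.

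The miR-200 family is also the marker of an epithelial line, and 4 of its 5 precursors were measured, summing to 2732 under hypoxia and 1836 under normoxia. The mature miR-200 probes had a signal on both arrays in 5 of 5 cases, summing to 2090 under hypoxia and 2465 under normoxia. Precursors typical of other cell types were mostly at 0 or dim, but this did not hold for all of the mature forms. Of 5 blood precursors only miR-142 was measured, with 46.3 under hypoxia against 74.3 under normoxia, and miR-144 and miR-223 were at 0 on both arrays. Of 7 muscle precursors only miR-133b was measured, and the other 6 were at 0. The neuronal list had 3 of 9 measured, miR-9-1, miR-9-3 and miR-124-2, which summed to 699 under hypoxia and 296 under normoxia, with miR-9-2, miR-124-1, miR-124-3 and miR-128-1 at 0 on both arrays. The liver precursor miR-122 had 21.7 under hypoxia and was listed at 0 under normoxia.

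Of the mature probes on these lists, 4 of 6 for blood, 4 of 5 for muscle, 1 of 3 for neurons and the 1 for liver had a signal on both arrays. Mature miR-122, of liver, had 1720 under hypoxia against 1171 under normoxia, and miR-150, of lymphocytes, had 903 under hypoxia against 666 under normoxia. Mature miR-142-5p had 621 under hypoxia against 921 under normoxia, and the muscle miRNA miR-206 had 442 under hypoxia against 155 under normoxia. Mature miRNAs of other cell types were thus listed with signals although most of their precursors were not, and this was not followed further.

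Precursors of miRNAs associated with hypoxia had no common direction. Of 23 on the array, 10 were measured. Of these 4 were higher and 6 lower (median -0.06, beside 0.14 over all probes); after scaling on the total signal 7 were higher and 3 lower, and with the trend removed 3 and 7. Higher were miR-103-2, miR-210, miR-26a-2 and miR-199a-1, and lower were miR-27a, miR-155, miR-107, miR-181c, miR-27b and miR-24-1. The miR-21 precursor, also on this list, had 130 under hypoxia and was listed at 0 under normoxia, and the other 12 were at 0 on both arrays. The relatives miR-103-2 and miR-107, whose mature strands share the seed GCAGCAU, differed: the miR-107 precursor had 278 under hypoxia against 359 under normoxia (-0.37), and mature miR-107 had 3314 against 4079 (-0.30). Here precursor and mature form moved alike, with a difference of -0.07, against 2.21 for miR-103-2.

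The let-7 family, whose precursors are bound by LIN28 in stem cells, had 4 of 12 precursors among the 133, with 2 higher (let-7a-1 and let-7e) and 2 lower (let-7d and let-7i). The let-7i precursor was the brightest of them, with 1826 under hypoxia against 1908 under normoxia, and mature let-7i had 5341 against 5219. The let-7 split was 1 higher and 3 lower both after quantile normalization and after trend removal, and 3 and 1 after scaling on the total signal. Among precursors with a known processing factor, 6 of 18 were measured, 3 higher and 3 lower. This split was 1 higher and 5 lower both after quantile normalization and after trend removal, and 4 and 2 after scaling on the total signal, and the precursor change was above the mature change in 2 of the 6 pairs on the deposited scale and in 0 of 6 after quantile normalization or trend removal. Of the miR-23, miR-27 and miR-24 clusters, 3 of 6 precursors were measured and all 3 were lower, except after scaling on the total signal, where 2 were higher; miR-23a and miR-23b, whose mature forms are among the brightest on the array, had precursors at 0. miR-29 had 2 of 4 measured, miR-29c at 0.42 and miR-29b-2 at -0.69. The miR-15 and miR-16 list had 2 of 8, miR-15a and miR-15b, the miR-17-92 cluster with its paralogs 2 of 15, miR-18b and miR-92a-1, the miR-181 family 1 of 6 and the miR-99, miR-100 and miR-125 families 1 of 6. None of 6 miR-30 precursors and none of 3 of the miR-130 and miR-301 family had a signal on both arrays.

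Precursors cut from one transcript can be read against each other in clusters. Among the 133, 24 precursors fell into 11 clusters of genes within 10 kb of their neighbour on one chromosome, and in 7 of these clusters all measured precursors lay in the same direction. This count has to be read beside the 60.9% of all 133 precursors that were higher, most clusters having 2 measured members. Under quantile normalization, with the trend removed and after scaling on the total signal it was 6, and 4 clusters lay in one direction in each setting, of which miR-27b with miR-24-1 turned from lower to higher after scaling on the total signal. The cluster of miR-224 and miR-452, both higher on the deposited scale, split by quantile normalization or trend removal, and that of miR-372 and miR-373, both lower, split after scaling on the total signal. The miR-532, miR-660 and miR-502 genes lie within CLCN5, a chloride channel gene on the X chromosome. All 3 precursors were higher under hypoxia under each of the 7 alternatives, with log2 fold changes of 1.24, 0.97 and 0.77. Mature miR-532-3p had 331 under hypoxia against 121 under normoxia (1.46), and miR-532-5p stood at 0.77. Mature miR-502-5p, with 2125 under hypoxia against 1166 under normoxia (0.87), was close to its precursor, while miR-502-3p stood at -0.14, and mature miR-660 was at -0.62. Whether the mature form followed the precursor thus depended on the strand for miR-502, while both miR-532 strands were higher and the only mature miR-660 probe was lower. Between the 3 genes lie miR-188, with a precursor signal of 43.7, and miR-500, with 24.7, both under hypoxia only, and miR-362 and miR-501 at 0 on both arrays.

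The clusters of miR-200b with miR-429 and of miR-200c with miR-141 were higher in all measured precursors under each alternative. The 3 measured precursors of the miR-302 cluster, miR-302b, miR-302c and miR-302d, were all higher on the deposited scale, but 2 of 3 were lower under quantile normalization and once the trend was removed. In 4 clusters the precursors split on that scale. miR-29c was higher, with 1006 under hypoxia against 752 under normoxia, and its neighbour miR-29b-2 lower, with 160 against 259, while their mature forms moved alike at 0.32 and 0.34. The miR-425 precursor was higher (0.35) and that of miR-191 lower (-0.60), and mature miR-425 (0.25) and miR-191 (-0.89) split likewise. The let-7a-1 precursor was higher (0.24) and that of let-7d lower (-0.44), while mature let-7a (-0.14) and let-7d (0.28) split the other way. The let-7e precursor was higher (0.16) and that of miR-125a lower (-0.36), with mature let-7e at -0.06 and miR-125a-3p at -0.11. The let-7e precursor turned lower under quantile normalization and once the trend was removed.

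**Figure D4:**
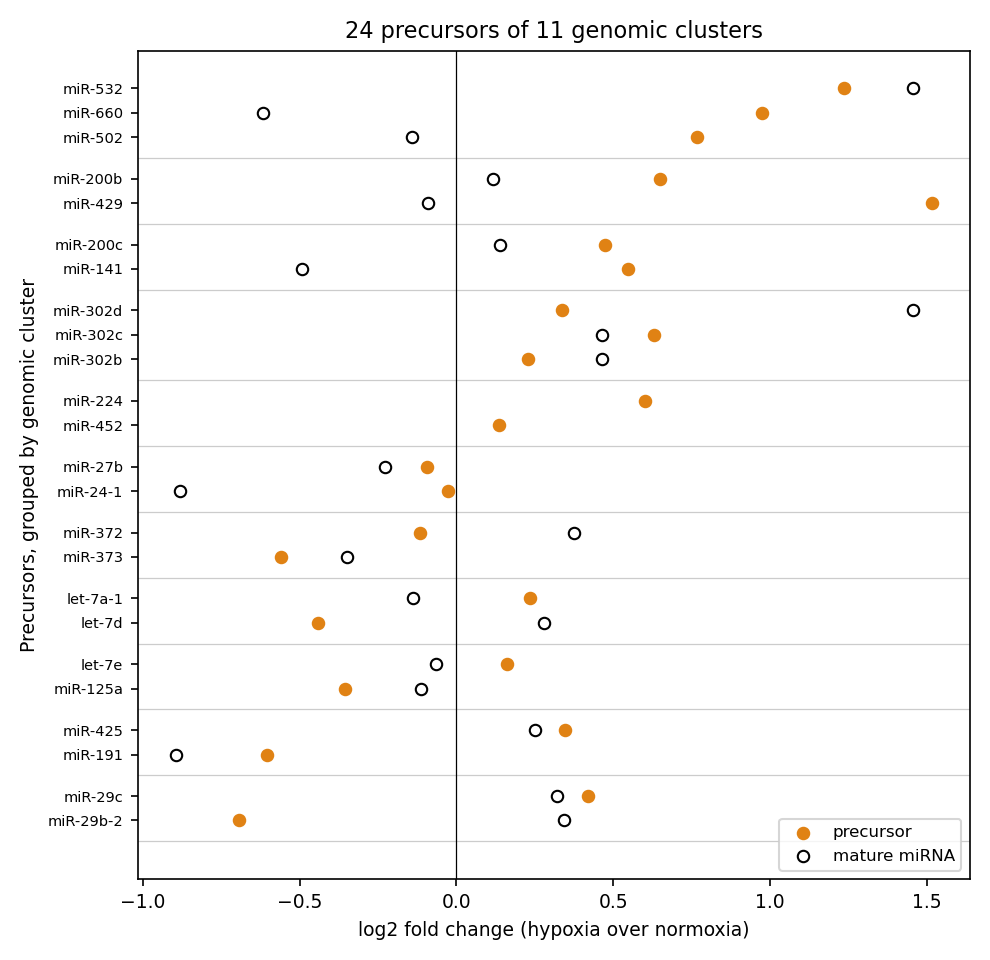
Log2 fold changes of hypoxia over normoxia for 24 precursors (filled) and their mature miRNAs (open, where measured), in 11 genomic clusters separated by grey lines. The precursors of miR-532, miR-660 and miR-502 lie together between 0.77 and 1.24 while the mature strands with the higher summed signal lie between -0.62 and 1.46, and in the 4 lowest clusters 1 precursor lies on each side of 0.

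For copies of a gene that give the same mature miRNA, signals of the precursor probes are listed side by side but were not compared as levels, because the bases that each probe covers are not known. Of the miR-26a hairpins only miR-26a-2 had a signal, and miR-26a-1 was at 0 on both arrays. The same held for miR-103-2 against miR-103-1, and miR-9-2 was at 0 beside miR-9-1 and miR-9-3. The miR-9-1 and miR-9-3 hairpins shown above are identical at 77.8% of aligned positions, and both precursors were higher under hypoxia in all alternatives. Both miR-218 precursors were higher under hypoxia, miR-218-2 with 88.3 against 60.3 under normoxia (0.55). The miR-550 precursors, 96.9% identical, had 495 under hypoxia against 263 under normoxia for miR-550-2 and 141 against 111 for miR-550-1.

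A signal and a 0 were also listed for probes of closely alike hairpins, and the 2 cases that follow were picked after their values were seen. The miR-513a-2 precursor had 2809 under hypoxia against 3384 under normoxia, and the miR-513a-1 precursor had 36 under hypoxia and was listed at 0 under normoxia, and the hairpins are 96.9% identical over 129 aligned positions. They are shown here because they differ so little, which bears on how the 0 of any other copy can be read.
miR-513a-2 (chrX:147225826-147225952, minus strand): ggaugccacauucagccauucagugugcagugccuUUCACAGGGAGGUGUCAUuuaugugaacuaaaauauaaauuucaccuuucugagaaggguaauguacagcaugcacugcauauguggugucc
miR-513a-1 (chrX:147213463-147213591, minus strand): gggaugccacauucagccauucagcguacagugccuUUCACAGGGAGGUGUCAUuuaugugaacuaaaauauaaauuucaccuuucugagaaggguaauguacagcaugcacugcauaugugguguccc

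The miR-514-3 precursor had 38.3 under hypoxia against 26.3 under normoxia, and that of miR-514-2 was at 0 on both arrays, and RefSeq gives the same 88 bases for both hairpins.

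RefSeq held a gene entry for 128 of the 133 precursors and a hairpin for 115. No gene entry was found for miR-220a, miR-560, miR-565, miR-566 and miR-594. The hairpins of the measured precursors had a median GC content of 50.7%, those of 141 precursors with no signal on either array 47.3%, and the median predicted folding energy was -41.3 kcal/mol for the measured precursors and -36.4 kcal/mol for those with no signal. Median lengths were alike, at 95 and 94 bases. Among the measured precursors, the 72 that were higher under hypoxia had a median GC content of 49.0% and the 42 that were lower had 54.0%, but across precursors GC content and log2 fold change were only weakly related, with a Pearson coefficient of -0.17. Of the 128, 75 lie within the span of a protein-coding gene on either strand, and 50 of these were higher and 25 lower (median 0.24), against 31 and 21 of the 53 outside (median 0.15).

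At the edge of the rule, the dimmest measured precursors were miR-505 with 24.3 under hypoxia against 20 under normoxia, miR-302b with 25 against 21.3, and miR-624 with 22.7 against 30.7. Among the precursors left out by the signal rule, and not by number, the brightest were miR-21 with 130 under hypoxia, miR-145 with 72 and miR-576 with 62.3, each listed at 0 under normoxia. The 61 precursors with a signal under hypoxia only had 26.3 as their median, and 56 were under 50. The sources do not say what a 0 means, so no fold change was computed for them, and the only precursor with a signal under normoxia alone was miR-602, at 20.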

How the data were processed

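Biotin-labelled total RNA of MKN1 cells was put on GenoSensor human miRNA arrays (miRBase v13), 1 per condition. The authors processed the spots in GeneSpring GX and report a normalization on global signal intensity. The deposited values are linear, normalized signal intensities, and their sums still differ, at 1001867 under hypoxia and 1149819 under normoxia. Software version, genome build and probe sequences are not given in the sources that were used. The deposited ratio, t-test p-value and detection columns hold the authors' own comparison and were not used. The 2 deposited tables agreed for 1329 of 1329 probes.

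Precursors were found by the mark "pre" in the name, spelled with a small p for 85 of the 133 and with a capital P for 48. Log2 fold changes of hypoxia over normoxia were computed with no pseudocount where both signals were above 0. The size rule was 2-fold, as in the methods of the paper but without the test. The mature partner was the unstarred strand of the same gene, and of a 5p and a 3p strand the one with the higher summed signal.

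Named were all precursors over 2-fold, the 5 brightest, the 10 largest differences from the mature form in each direction among pairs with 4 signals of at least 50, the 3 just inside and the 3 just outside the rule, copies of these, and members of the lists. The members and lists were chosen with earlier results of these data known. Alternatives were median centring, scaling on the 75th percentile, on total signal or by quantiles, removal of the trend of change with signal by lowess (span 0.4), pseudocounts of 16 and 50, filters on dim probes, thresholds of 1.5-fold and 3-fold, and other partners. Added after seeing the data were the spelling with a small p and the comparison of 2 mature strands of 1 gene.

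RefSeq tables (GRCh38.p14) gave hairpins, mature strands and gene neighbours, and copies were aligned globally. The calculations were tested on simulated data. Versions were ViennaRNA 2.7.2, matplotlib 3.10.9, statsmodels 0.14.6, scipy 1.17.1, pandas 2.3.3, numpy 2.4.6 and Python 3.11.15.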

Additional observations from a re-analysis of the deposited data

Results flagged for a closer look

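Among the precursors left out by the signal rule, and not by number, the 3 brightest had a signal on 1 array only. The miR-21 precursor had 129.7 under hypoxia and was listed at 0 under normoxia, while mature miR-21 had 33275 under hypoxia against 51865 under normoxia. The miR-145 precursor had 72 under hypoxia and was listed at 0 under normoxia, with mature miR-145 at 1104 under hypoxia against 734.7 under normoxia. The miR-576 precursor had 62.33 under hypoxia and was listed at 0 under normoxia. Each rests on 1 array. The 3 were picked as the highest of the 61 precursors with a signal under hypoxia only, whose median was 26.33.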

How the results depend on the processing

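No paired analysis was possible because each condition had 1 array. On the deposited scale 12 precursors were over 2-fold higher and 2 lower, their median was 0.23, and the precursor change was over 2-fold above the mature change in 12 pairs and below it in 11, with a median difference of 0.10. Scaling factors leave the pairs as they are. Median centring gave 4 lower precursors and a median of 0.093, 75th percentile scaling a median of 0.25, and scaling on the total signal 19 higher and 1 lower with a median of 0.43. Quantile normalization gave 7 higher and 7 lower, a median of 0 and a median difference of -0.035 (65 precursors higher, and 44 pairs above). Removal of the trend gave 6 higher and 5 lower, a median of 0.022, a median difference of -0.066 and a Pearson coefficient of 0.23. The cause of these moves was not tested.

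A pseudocount of 16 gave a median of 0.16, 6 pairs below and a median difference of 0.094, and one of 50 gave 1 higher and 1 lower precursor, a median of 0.15, 5 pairs below and a median difference of 0.064. With both signals at least 50, 1 precursor was lower, the median was 0.16 and 7 pairs were above. With both at least 100, 2 precursors were higher and 1 lower, 48 had a higher signal and the median was 0.13, while 5 pairs were over 2-fold above and 4 below, 35 pairs had the precursor above, the median difference was 0.17 and the Pearson coefficient 0.25. A 1.5-fold threshold gave 35 and 18, and a 3-fold threshold 0 and 1; filters and thresholds change counts by construction. The dimmer of 2 named strands as the partner gave a median difference of 0.13, and mature signals of 0 read as the lowest listed signal 0.074. After the data were seen, only names with a small p were taken, which left 50 precursors with a higher signal, 1 over 2-fold lower, a median of 0.16, 7 pairs below and a median difference of 0.15 (44 pairs above and 28 below). The 25 pairs with a capital P went the other way, with 10 above and 15 below and a median difference of -0.27.

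Over the 7 scalings, trend removal and pseudocounts, 59 precursors were higher and 37 lower in every one. The precursors of miR-9-1 and miR-652 stayed past 2-fold in all, as did the differences of 13 pairs: miR-103-2, miR-15a, miR-193b, miR-210, miR-218-2, miR-26a-2, miR-302d, miR-342, miR-598, miR-652, miR-660, miR-9-1 and miR-9-3. No named value past 2-fold changed sign, but for most settings this was fixed in advance. A pseudocount cannot turn the sign of a precursor change. Scaling factors shifted a precursor change by at most 0.20 and cancel in the differences.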

Other observations

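The 20 precursors with a signal on both arrays whose numbers the rule leaves out had a median log2 fold change of 0.66 on the same 2 arrays, with 19 higher and 1 lower under hypoxia and 6 over 2-fold higher. Their median signal was 225 under hypoxia and 150 under normoxia, beside 206 and 171 for the 133 precursors described above.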
